A study of Homo sapiens with 8 samples.

Results

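The genes of the lysosome and of autophagy were followed as a set of 40, chosen by name: genes for lysosomal membrane proteins, acid hydrolases, the proton pump and the autophagy machinery, with GLB1, which encodes the senescence-associated beta-galactosidase, among them. All 40 were found among the 58825 genes of the deposited table, and all 40 were among the 16542 genes that passed the filter on low values; the lowest count of any of them in a library was 94 reads (CTSH). The cells were BJ-HRAS, a derivative of the human skin fibroblast line BJ. The groups were SNORA13 knockout (KO) clones 66 and 69 with 100 nM (Z)-4-hydroxytamoxifen (4-OHT) for 7 days, the same KO clones without 4-OHT, WT clones 15 and 54 with 4-OHT for 7 days, and the same WT clones without 4-OHT, 1 library each, 8 in all. SNORA13 is a small nucleolar RNA. In cells of this kind 4-OHT is used to switch on an oestrogen receptor fusion of HRAS, and lasting RAS signalling is known to drive cells into senescence. Each genotype is represented by 2 clones, so what separates KO from WT and what separates these clones cannot be told apart. RNA levels are given as RPKM (read density per kilobase of the listed transcript at equal library totals) after trimmed-mean (TMM) scaling, with KO clones in the order 66, 69 and WT clones in the order 15, 54.

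As background, lysosomes are acidic organelles in which hydrolases break down proteins, glycans and lipids. A proton pump, the V-ATPase, acidifies them, and autophagy delivers part of the cell's own content to them inside vesicles coated with proteins of the ATG8 family. Many of these genes carry a short promoter element, known as CLEAR, with the core CACGTG, which is read by TFEB and its relatives TFE3 and MITF. An enlarged lysosomal compartment and raised beta-galactosidase activity at near-neutral pH are long-used marks of senescent fibroblasts.

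The core of this element can be read in the promoters of some members. These members include neither GLB1 nor any gene called in the difference of responses in the fit reported below, and members without a window were not searched. LAMP1 and CTSD, which carry the core, were called in that difference under some alternative settings. RefSeq promoter windows (GRCh38.p14, 250 bases before to 50 after the gene start) were at hand for 28 of the 40 genes, in 41 windows. The letters CACGTG, which read the same on both strands, were in the windows of 9 of those 28 genes (9 of 41 windows, 22%), against 7.26% of 35116 windows of all genes and 18.5% of 162 windows of other lysosome and autophagy genes. The longer TCACGTGA, which contains the core, was in 12.2% of the members' windows, against 0.98% of all windows and 8.02% of those of the other lysosome and autophagy genes. Stretches upstream of a RefSeq transcript start are shown for 7 of the 9, with the CACGTG in capitals; LAMP1 is shown for its run of sites, and CTSA, CTSD and ATP6V0D1 only as the 30 bases around their sites.
LAMP1: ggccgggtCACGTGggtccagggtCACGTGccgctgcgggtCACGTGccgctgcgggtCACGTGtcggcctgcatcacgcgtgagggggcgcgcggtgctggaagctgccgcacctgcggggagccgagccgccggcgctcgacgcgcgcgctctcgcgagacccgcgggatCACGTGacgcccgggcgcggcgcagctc
GAA: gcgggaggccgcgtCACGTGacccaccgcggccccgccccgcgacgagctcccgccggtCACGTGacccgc
CTSA: ctgtCACGTGgcgccggagttCACGTGact
CTSD: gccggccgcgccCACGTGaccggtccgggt
MCOLN1: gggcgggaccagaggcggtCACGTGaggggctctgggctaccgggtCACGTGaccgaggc
ATP6V0D1: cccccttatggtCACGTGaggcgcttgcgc
NEU1: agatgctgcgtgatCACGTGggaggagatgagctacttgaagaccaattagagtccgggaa
These stretches lie at chr13:113297039-113297238 (LAMP1, plus strand), chr17:80101491-80101561 (GAA, plus), chr20:45891289-45891318 (CTSA, plus), chr11:1763957-1763986 (CTSD, minus), chr19:7522564-7522623 (MCOLN1, plus), chr16:67481199-67481228 (ATP6V0D1, minus) and chr6:31862901-31862961 (NEU1, minus). By the GENCODE 29 annotation, whose gene bounds take in every annotated transcript, all 30 printed bases of CTSA, CTSD and ATP6V0D1 and 6 bases each of GAA and NEU1 are exonic in at least 1 transcript of some gene, and those of LAMP1 and MCOLN1 are in no exon. LAMP1 had 5 copies in the printed stretch and 6 in its window. GAA, MCOLN1 and CTSA had 2 each. The other 2 genes with the core were ARSB and CD63. Of other motifs searched on both strands, GTAAACA was in the window of CTSL only among the 28 genes (3.42% of all windows) and TGANTCA in that of CD63 only (7.71% of all windows).

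Library totals were 22.1 to 24.9 M reads. SNORA13 had 0 reads in all 4 KO libraries, which allows up to 3 reads in each, and 5 and 7 reads in WT libraries with 4-OHT against 6 and 4 without it. Value columns are headed by clone numbers, some followed by a minus sign, which was read as without 4-OHT; no label spells this out, so the direction of each 4-OHT response rests on that reading. RNA of the signal recognition particle took 16.1% and 14.77% of reads in KO clones with 4-OHT and 9.72% and 15.37% in WT clones with 4-OHT, against 9.18% to 10.13% in the 4 libraries without it, so WT clone 15 stands apart from the other 3 libraries with 4-OHT. The 9 fibroblast markers summed to 1696 to 1975 RPKM in KO and 1815 to 1823 RPKM in WT with 4-OHT, against 3771 to 3939 RPKM in KO and 3957 to 4183 RPKM in WT without it. The genes of this list went different ways: the 4 libraries with 4-OHT had 1039 to 1281 RPKM of VIM, against 781 to 813 RPKM in the 4 without it, but 0.885 to 1.1 RPKM of DCN against 54.5 to 79.8 RPKM, and 12.2 to 23.5 RPKM of LUM against 286 to 855 RPKM. The 9 genes that mark macrophages, cells rich in lysosomes, summed to 9.62 to 11.1 RPKM in KO with 4-OHT and 9.32 to 10.5 RPKM without it, against 12.9 to 16 RPKM in WT with 4-OHT and 14.8 to 17.3 RPKM without it. The KO sums thus lay below the WT sums, and most of each was CD14 (7.3 to 9.14 RPKM in KO, 10.5 to 13.7 RPKM in WT). The 6 epithelial markers summed to 7.29 to 9.03 RPKM in KO with 4-OHT against 18.1 to 19.2 RPKM without it, and to 4.79 to 6.07 RPKM in WT with 4-OHT against 18.3 to 20.2 RPKM without it; nearly all of this was KRT8, whereas KRT5 and KRT14 had 0 reads in all 8 libraries. The part of the marker and signal recognition particle shifts in the results below was not tested, but for an alternative fit. It left signal recognition particle and mitochondrial RNA out of the scaling. In bulk RNA, fewer cells expressing a gene and less of its RNA per cell cannot be told apart.

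With 4-OHT, most of the hydrolase genes fell in both genotypes, GLB1 included, whereas 4 of the 5 V-ATPase genes of the set rose in WT clones. Of 15 V-ATPase genes outside the set, 5 rose and 2 fell there. In KO clones 2 of the 40 genes rose and 26 fell; of all tested genes 27.9% were called higher and 27.8% lower, 55.7% in either direction. In WT clones 8 rose and 21 fell, beside 24.7% of all tested genes higher and 24.2% lower, 48.9% in either direction. The median log2 difference of the 40 genes was -0.51 in KO and -0.34 in WT, beside -0.02 over all tested genes in either. The tests were limma's, over 2 clones per group with a spread shared by all 4 groups, two-sided, with Benjamini-Hochberg adjustment over all 16542 genes and 0.05 as threshold. The share of all tested genes called in both genotypes, or in neither, was not computed. The joint counts that follow therefore have no baseline. In both genotypes 20 genes fell and 2 rose, 5 were called in neither, and 23 of the 28 KO calls and 25 of the 29 WT calls held under each of the 18 alternatives tried. The count of genes that rose in KO was 1 without KO clone 66 with 4-OHT or KO clone 69 without it, and 3 without either WT clone without 4-OHT.

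**Figure D1:**
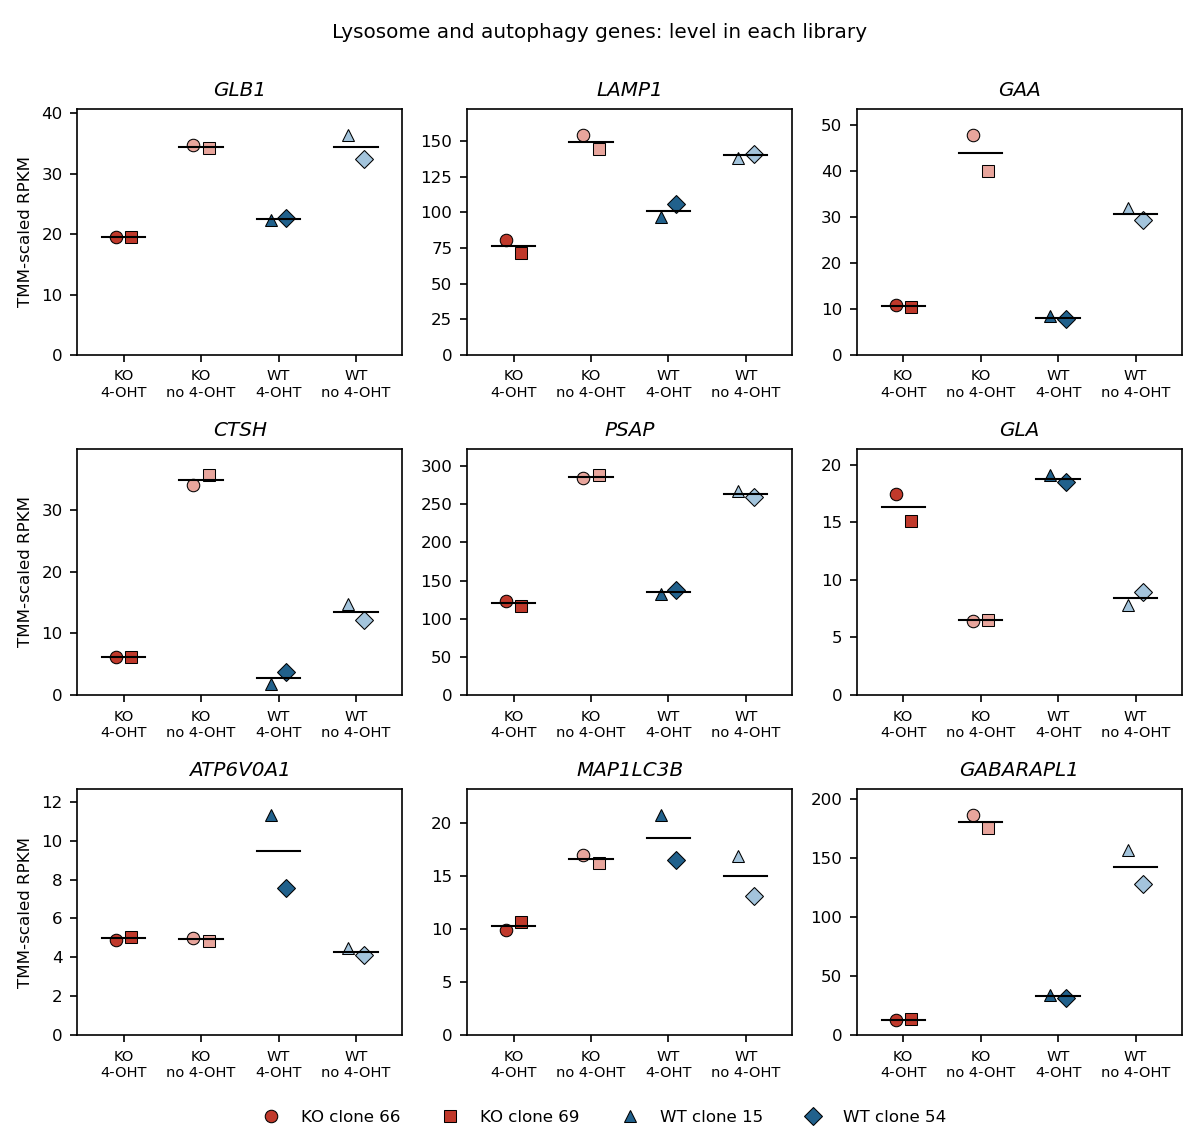
TMM-scaled RPKM (linear axis from 0) of 9 genes in each of the 8 libraries; points are clones, horizontal lines the mean of the 2 clones of a group. GLB1, LAMP1, GAA, CTSH, PSAP and GABARAPL1 lie lower with 4-OHT than without it in both genotypes, GLA lies higher, and ATP6V0A1 lies apart only in WT clones with 4-OHT.

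GLB1 (ENSG00000170266.16, chromosome 3, 32996608 to 33097230, minus strand, GRCh38) measured 19.5 and 19.6 RPKM in KO clones with 4-OHT, against 34.8 and 34.2 RPKM without it. In WT clones it measured 22.3 and 22.6 RPKM with 4-OHT, against 36.4 and 32.5 RPKM without it. The libraries with 4-OHT lay below those without it in either genotype, with no overlap. The message thus fell 1.76-fold in KO (log2 -0.82 ± 0.08, SE; adjusted p = 9.68e-05) and 1.53-fold in WT (log2 -0.61 ± 0.08; adjusted p = 0.000534). The responses differed by -0.21 ± 0.11 on the log2 scale, which was not called (adjusted p = 0.282). Enzyme activity, by which senescence is usually stained, was not measured here.

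Of the 6 membrane protein genes, 3 fell and none rose in KO, and 2 fell and 1 rose in WT. The share called in either direction was below the 55.7% of all tested genes in KO and near the 48.9% in WT. LAMP1 (ENSG00000185896.11, chromosome 13, 113297241 to 113323672, plus strand), a main glycoprotein of the lysosomal membrane, measured 80.7 and 71.2 RPKM in KO clones with 4-OHT, against 154 and 144 RPKM without it. The WT clones had 96.6 and 106 RPKM with 4-OHT, against 138 and 141 RPKM without it. It fell 1.96-fold in KO (log2 -0.97 ± 0.09; adjusted p = 7.98e-05) and 1.38-fold in WT (log2 -0.46 ± 0.09; adjusted p = 0.0036). The lowest pair was that of the KO clones with 4-OHT, and no group overlapped another.

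LAMP2, which also takes part in fusion with autophagosomes, measured 41 and 40 RPKM in KO clones with 4-OHT, against 49.2 and 52.1 RPKM without it. Levels in WT clones were 38.2 and 35.3 RPKM with 4-OHT, against 45.9 and 39.1 RPKM without it. Its fall was called in KO (log2 -0.32 ± 0.09; adjusted p = 0.0207) but not in WT (log2 -0.20 ± 0.09; adjusted p = 0.109), and the KO call ended when any 1 of the 4 KO libraries was left out (adjusted p 0.0553 to 0.113). The KO call of LAMP2 also ended with no filter on low values. SCARB2, a lysosomal membrane protein of the scavenger receptor family, measured 42.3 and 46.2 RPKM in KO clones with 4-OHT against 63.1 and 63.6 RPKM without it, and 42.4 and 42.9 RPKM in WT clones with 4-OHT against 65.1 and 65.1 RPKM without it. It fell by like amounts, 1.43-fold in KO (adjusted p = 0.000523) and 1.52-fold in WT (adjusted p = 0.000337).

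NPC1, which exports cholesterol from the lysosome, went the other way. It measured 13.3 and 11.9 RPKM in KO clones with 4-OHT against 9.35 and 8.76 RPKM without it, and 19.4 and 19.6 RPKM in WT clones with 4-OHT against 8.95 and 13.7 RPKM without it. It rose 1.76-fold in WT (log2 0.81 ± 0.18, adjusted p = 0.0074). In KO the log2 difference was 0.47 ± 0.18 (adjusted p = 0.0557, or 0.0358 with the clone as a block). The groups did not overlap in either genotype, but no share of all tested genes without overlap was computed. This separation, like that of GLB1 and LAMP1 above, therefore adds nothing to the calls. NPC1 shares 604 exonic bases with RMC1 on the opposite strand, which measured about as much, and whether counting used strand is not given in the sources used here. CD63, a tetraspanin with the highest mean level of the 40 genes (897 RPKM over the 8 libraries), and the calcium channel gene MCOLN1 were called in neither genotype.

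Of the 8 peptidase genes, 6 fell and none rose in KO, and 5 fell and 1 rose in WT. Calls made up 75% in either genotype, beside 55.7% of all tested genes in KO and 48.9% in WT. The deepest fall among the 8 was that of CTSH (ENSG00000103811.16, chromosome 15, 78921058 to 78949574, minus strand), a cysteine cathepsin with aminopeptidase activity. It measured 6.21 and 6.13 RPKM in KO clones with 4-OHT, against 34.0 and 35.6 RPKM without it. In WT clones it measured 1.71 and 3.67 RPKM with 4-OHT, against 14.8 and 12.1 RPKM without it. It fell 5.57-fold in KO (log2 -2.48 ± 0.30; adjusted p = 0.000327) and 5.16-fold in WT (log2 -2.37 ± 0.30; adjusted p = 0.000558), and the KO clones lay above the WT clones with 4-OHT and without it.

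CTSA, a carboxypeptidase that also protects NEU1 and beta-galactosidase in a complex, measured 20.2 and 18.7 RPKM in KO clones with 4-OHT against 55.4 and 53.9 RPKM without it, and 22.4 and 20.2 RPKM in WT clones with 4-OHT against 49.9 and 43.4 RPKM without it. It fell 2.8-fold in KO (adjusted p = 1.94e-05) and 2.18-fold in WT (adjusted p = 8.66e-05). CTSD, the main aspartic peptidase of lysosomes, measured 21.6 and 16.2 RPKM in KO clones with 4-OHT against 50.8 and 50.2 RPKM without it, and 27.7 and 28.3 RPKM in WT clones with 4-OHT against 45.9 and 45.9 RPKM without it. It fell 2.69-fold in KO (adjusted p = 7.39e-05) and 1.64-fold in WT (adjusted p = 0.00267).

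The more abundant cathepsins moved less. CTSB fell 1.25-fold in KO (adjusted p = 0.00686) and 1.17-fold in WT (adjusted p = 0.0355), and CTSZ 1.41-fold and 1.25-fold (adjusted p = 0.000826 and 0.00746). The WT call of CTSB ended with the clone as a block (adjusted p = 0.0538) and without WT clone 15 with 4-OHT or any of the 4 libraries without 4-OHT (adjusted p 0.0548 to 0.171), and its KO call ended without KO clone 69 with 4-OHT (adjusted p = 0.0529). CTSL rose 1.21-fold in WT (adjusted p = 0.0208), a call that ended without WT clone 54 with 4-OHT or WT clone 15 without it (adjusted p = 0.112 and 0.0555). The WT calls of both CTSB and CTSL also ended in a fit of the WT libraries alone and without limma's trend and robust moderation. That of CTSL ended as well with scaling by library size only. In KO the log2 difference of CTSL was 0.19 ± 0.08, which was not called (adjusted p = 0.0764). TPP1, a tripeptidyl peptidase, fell 1.51-fold in KO (adjusted p = 0.00503), and its log2 difference of -0.34 ± 0.12 in WT was not called (adjusted p = 0.0539). The collagen-cleaving CTSK was called in neither genotype (log2 -0.07 ± 0.21 in KO and 0.57 ± 0.21 in WT), although its WT rise was called with the clone as a block (adjusted p = 0.00534).

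The 12 genes for glycan hydrolases and sulfatases held 2 that rose and 9 that fell in KO, and 2 that rose and 8 that fell in WT. Calls made up 91.7% in KO and 83.3% in WT, beside 55.7% and 48.9% of all tested genes. GAA (ENSG00000171298.13, chromosome 17, 80101556 to 80119879, plus strand), which breaks down glycogen, measured 10.9 and 10.5 RPKM in KO clones with 4-OHT against 47.7 and 39.9 RPKM without it. The WT clones had 8.38 and 7.83 RPKM with 4-OHT against 31.8 and 29.2 RPKM without it. It fell 4.05-fold in KO (log2 -2.02 ± 0.10; adjusted p = 9.31e-06) and 3.73-fold in WT (log2 -1.90 ± 0.10; adjusted p = 1.63e-05). In each of the 4 clones the level without 4-OHT lay far above that with it.

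GUSB (ENSG00000169919.17, chromosome 7, 65960684 to 65982314, minus strand), the beta-glucuronidase, measured 6.90 and 7.99 RPKM in KO clones with 4-OHT against 12.6 and 12.6 RPKM without it. Levels in WT clones were 3.91 and 3.45 RPKM with 4-OHT against 11.3 and 10.7 RPKM without it. It fell 1.69-fold in KO (adjusted p = 0.000714) and 2.94-fold in WT (adjusted p = 3.84e-05), so the KO clones kept more of it with 4-OHT. GUSB has pseudogene copies among which reads could be split.

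GLA (ENSG00000102393.10, chromosome X, 101397803 to 101408012, minus strand), the alpha-galactosidase that clears globotriaosylceramide, rose in both genotypes. It measured 17.5 and 15.1 RPKM in KO clones with 4-OHT against 6.46 and 6.49 RPKM without it, and 19.1 and 18.5 RPKM in WT clones with 4-OHT against 7.81 and 8.99 RPKM without it. That was 2.49-fold in KO (adjusted p = 4.71e-05) and 2.23-fold in WT (adjusted p = 0.00012). The sialidase NEU1 rose 1.27-fold in KO (adjusted p = 0.0177) and 1.61-fold in WT (adjusted p = 0.000933). Its KO call ended without KO clone 66 with 4-OHT or KO clone 69 without it (adjusted p = 0.111 and 0.108).

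Of the other enzymes of this role, NAGLU, which acts on heparan sulfate, fell 2.44-fold in KO and 2.3-fold in WT (adjusted p = 4.75e-05 and 9.35e-05), and the hexosaminidase subunit HEXA fell 2.46-fold and 2.34-fold (adjusted p = 9.27e-05 and 0.000179). The sulfatide sulfatase ARSA fell 2.89-fold in KO and 1.75-fold in WT (adjusted p = 6.74e-05 and 0.00183), ARSB 1.4-fold and 1.37-fold (adjusted p = 0.00348 and 0.00592) and the beta-mannosidase MANBA 2.11-fold and 1.66-fold (adjusted p = 0.000349 and 0.00302). SGSH, a heparan sulfatase, fell 1.21-fold in KO (adjusted p = 0.0276; 0.0935 to 0.108 when any 1 KO library was left out) and had a log2 difference of 0.00 ± 0.09 in WT. The KO call of SGSH also ended with no filter on low values and without limma's trend and robust moderation. IDS was called in neither genotype, and its fall in KO was called with the clone as a block (adjusted p = 0.0197).

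All 4 genes of lipid breakdown and transfer fell in KO, and 3 of them in WT. Calls thus made up 100% in KO and 75% in WT, beside 55.7% and 48.9% of all tested genes. PSAP (ENSG00000197746.14, chromosome 10, 71816298 to 71851375, minus strand), the precursor of the saposins that present lipids to hydrolases, measured 123 and 117 RPKM in KO clones with 4-OHT against 284 and 288 RPKM without it. In WT clones it measured 132 and 137 RPKM with 4-OHT against 268 and 259 RPKM without it. It fell 2.38-fold in KO (log2 -1.25 ± 0.07; adjusted p = 1.07e-05) and 1.96-fold in WT (log2 -0.97 ± 0.07; adjusted p = 3.77e-05). The spread between clones was small beside these shifts.

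The acid ceramidase ASAH1 measured 24.9 and 25 RPKM in KO clones with 4-OHT against 56.6 and 61.1 RPKM without it, and 21.8 and 20.7 RPKM in WT clones with 4-OHT against 47.1 and 37.4 RPKM without it; it fell 2.36-fold in KO and 1.97-fold in WT (adjusted p = 8.42e-05 and 0.000355). The acid lipase LIPA fell 2.03-fold in KO and 1.59-fold in WT (adjusted p = 0.000758 and 0.00717). NPC2, which hands cholesterol to NPC1, measured 66.3 and 69.3 RPKM in KO clones with 4-OHT against 119 and 123 RPKM without it, and 82.8 and 72.5 RPKM in WT clones with 4-OHT against 92.8 and 88.0 RPKM without it. Its fall was 1.78-fold in KO (adjusted p = 0.000133) and 1.17-fold in WT, where it was not called (adjusted p = 0.06; 0.0416 with the clone as a block). NPC2 shares 72 exonic bases with the microRNA gene MIR4709, listed at a mean of 239 RPKM. That value is per kilobase, so it does not give the share of NPC2 reads concerned, which was not tested.

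**Figure D2:**
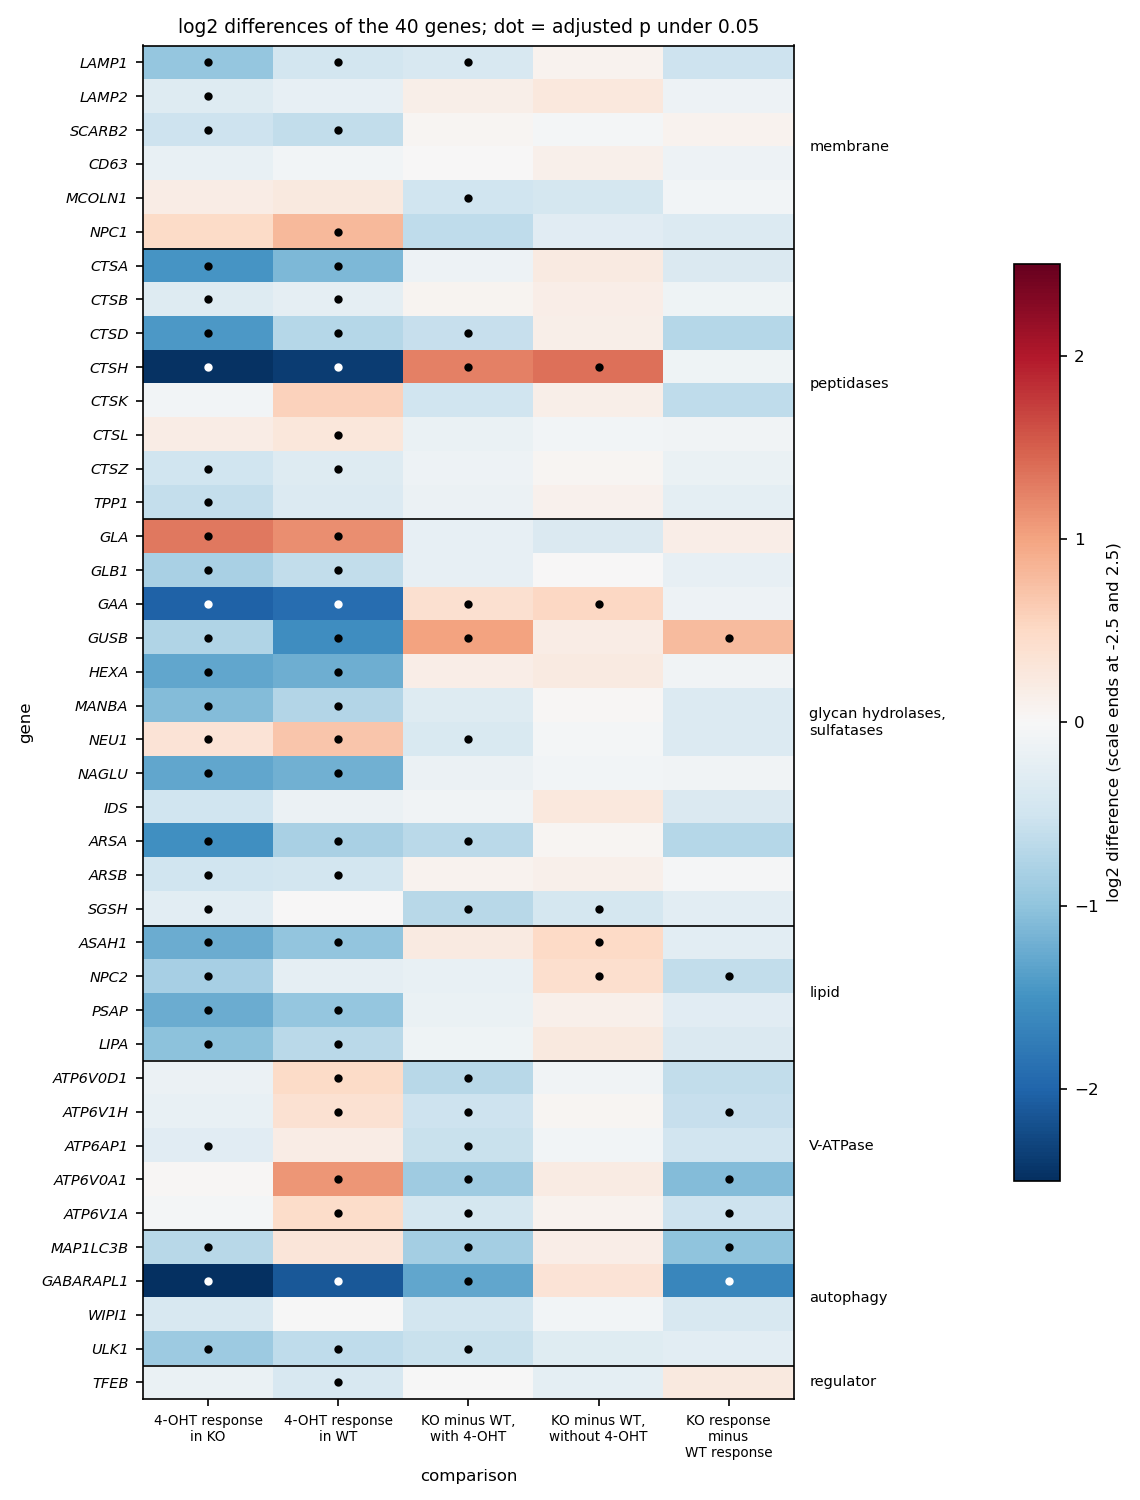
log2 differences (colour, ending at -2.5 and 2.5) of the 40 genes, grouped by role, in 5 comparisons; a dot marks adjusted p under 0.05. The hydrolase and lipid rows are mostly blue in both 4-OHT responses, and the V-ATPase rows are blue in the KO minus WT comparison with 4-OHT, where all 5 carry a dot.

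The 5 V-ATPase genes did not follow the hydrolases: in KO none rose and 1 fell, whereas in WT 4 rose and none fell. The 20% called in KO lay below the 55.7% of all tested genes, and the 80% in WT above the 48.9%. ATP6V0A1 (ENSG00000033627.16, chromosome 17, 42458844 to 42522611, plus strand), a subunit of the membrane sector, measured 4.91 and 5.07 RPKM in KO clones with 4-OHT against 4.99 and 4.85 RPKM without it. The WT clones had 11.3 and 7.57 RPKM with 4-OHT against 4.46 and 4.10 RPKM without it. Only the WT clones with 4-OHT stood apart, by 2.14-fold (log2 1.10 ± 0.18; adjusted p = 0.00176), while the log2 difference in KO was 0.02 ± 0.18.

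ATP6V1A (ENSG00000114573.10, chromosome 3, 113747019 to 113812056, plus strand), which bears the catalytic sites, measured 35.5 and 32.2 RPKM in KO clones with 4-OHT against 33.5 and 36.6 RPKM without it, and 46.4 and 44.8 RPKM in WT clones with 4-OHT against 32.9 and 33.2 RPKM without it. ATP6V1H, a regulatory subunit of the cytosolic sector, measured 31.0 and 28.3 RPKM in KO clones with 4-OHT against 32.9 and 34.3 RPKM without it, and 44.4 and 40.8 RPKM in WT clones with 4-OHT against 32.8 and 32.1 RPKM without it. The WT rise was 1.38-fold for ATP6V1A (adjusted p = 0.00235) and 1.31-fold for ATP6V1H (adjusted p = 0.00502). ATP6V0D1, a membrane-sector subunit, rose 1.39-fold in WT (adjusted p = 0.0138), a call that ended without WT clone 15 or 54 with 4-OHT (adjusted p = 0.0505 and 0.063).

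The accessory subunit gene ATP6AP1 measured 48.4 and 41.6 RPKM in KO clones with 4-OHT against 57.5 and 51.9 RPKM without it, and 65.9 and 65.3 RPKM in WT clones with 4-OHT against 58.2 and 56.6 RPKM without it. It fell 1.22-fold in KO (adjusted p = 0.0317), a call that ended without KO clone 69 with 4-OHT or KO clone 66 without it (adjusted p = 0.187 and 0.182). The KO call also ended with no filter on low values and without limma's trend and robust moderation. In WT the log2 difference was 0.19 ± 0.09 (adjusted p = 0.124). All 4 libraries without 4-OHT lay between the WT and the KO clones with it.

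**Figure D3:**
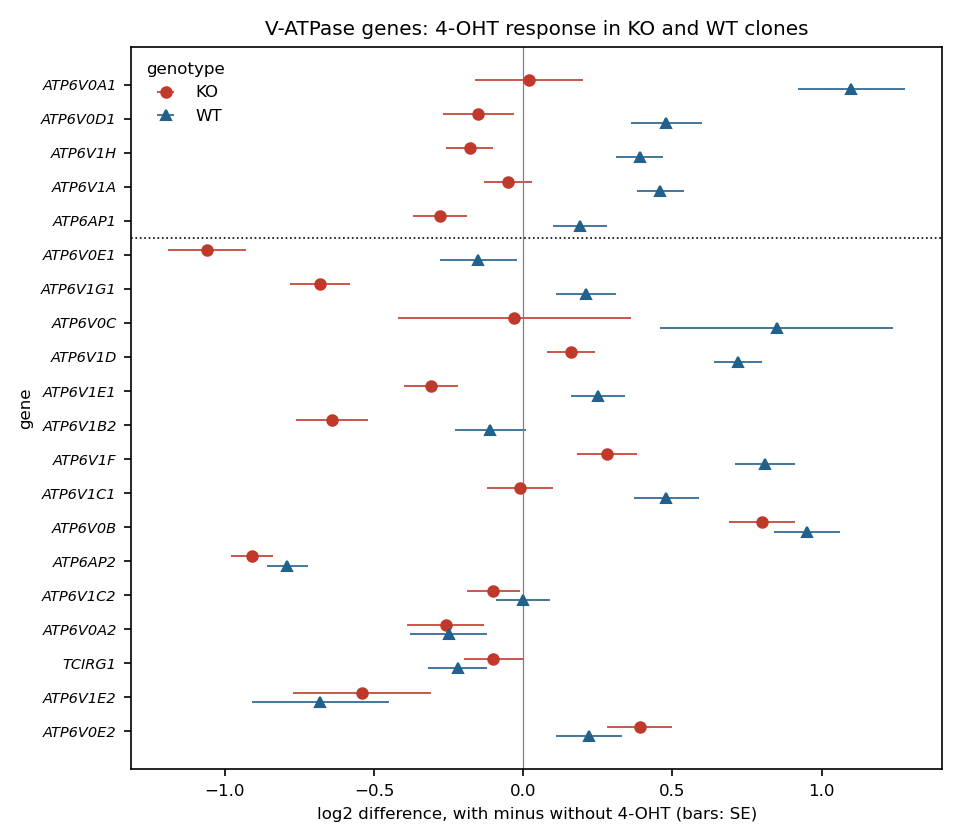
log2 difference, with minus without 4-OHT, of the 5 V-ATPase genes of the set (above the dotted line) and of 15 other V-ATPase genes, in KO (circles) and WT (triangles); bars are SE. For all 5 the KO estimate lies left of the WT estimate, and ATP6V0A1 shows the widest gap of the 5.

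Of the 4 autophagy genes, 3 fell in KO and 2 in WT, and none rose. The share called in either direction was above the 55.7% of all tested genes in KO and near the 48.9% in WT. GABARAPL1 (ENSG00000139112.11, chromosome 12, 10212458 to 10223130, plus strand), an ATG8 family member that coats autophagosomes, fell furthest of all 40 genes in KO. It measured 12.7 and 13.8 RPKM in KO clones with 4-OHT, against 186 and 175 RPKM without it. Levels in WT clones were 33.8 and 31.6 RPKM with 4-OHT, against 157 and 128 RPKM without it. The fall was 13.5-fold in KO (log2 -3.76 ± 0.11; adjusted p = 1.18e-06) and 4.32-fold in WT (log2 -2.11 ± 0.11; adjusted p = 1.46e-05). These values rest on 531 and 617 reads in the KO libraries with 4-OHT.

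MAP1LC3B (ENSG00000140941.13, chromosome 16, 87383995 to 87404779, plus strand), the ATG8 protein most used as an autophagosome marker, measured 9.87 and 10.7 RPKM in KO clones with 4-OHT, against 17 and 16.2 RPKM without it. In WT clones it measured 20.7 and 16.5 RPKM with 4-OHT, against 16.9 and 13.1 RPKM without it. It fell 1.61-fold in KO (log2 -0.69 ± 0.15; adjusted p = 0.00543). In WT the groups overlapped and the log2 difference of 0.31 ± 0.15 was not called (adjusted p = 0.124), but with the clone as a block it was (adjusted p = 0.0253): each WT clone was higher with 4-OHT than without it. MAP1LC3B shares 150 exonic bases with FBXO31 on the opposite strand (8.56 RPKM on average, against 15.1 RPKM for MAP1LC3B) and has a near-identical copy, MAP1LC3B2.

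ULK1, the kinase that starts autophagy, measured 2.21 and 1.78 RPKM in KO clones with 4-OHT against 4.07 and 3.53 RPKM without it, and 3.08 and 2.88 RPKM in WT clones with 4-OHT against 4.56 and 4.83 RPKM without it. It fell 1.87-fold in KO (adjusted p = 0.00134) and 1.56-fold in WT (adjusted p = 0.00823). WIPI1, a phosphoinositide-binding protein of the forming autophagosome, was called in neither genotype; with the clone as a block its fall in KO was (adjusted p = 0.0174). TFEB (ENSG00000112561.18, chromosome 6, 41683978 to 41736259, minus strand), the regulator of the set, measured 3.96 and 4.07 RPKM in KO clones with 4-OHT against 4.73 and 4.32 RPKM without it, and 4.10 and 3.98 RPKM in WT clones with 4-OHT against 5.57 and 5.21 RPKM without it. Its log2 difference was -0.17 ± 0.10 in KO (adjusted p = 0.196) and -0.41 ± 0.10 in WT, which was called (adjusted p = 0.0127) but ended without WT clone 54 with 4-OHT or WT clone 15 without it (adjusted p = 0.0572 and 0.0569). TFEB protein is known to be controlled by its place in the cell, which RNA does not show.

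The members with the CACGTG core moved in both directions with 4-OHT. LAMP1, GAA, CTSA, CTSD and ARSB fell in both genotypes, NEU1 rose in both, ATP6V0D1 rose in WT, and MCOLN1 and CD63 were called in neither.

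**Figure D4:**
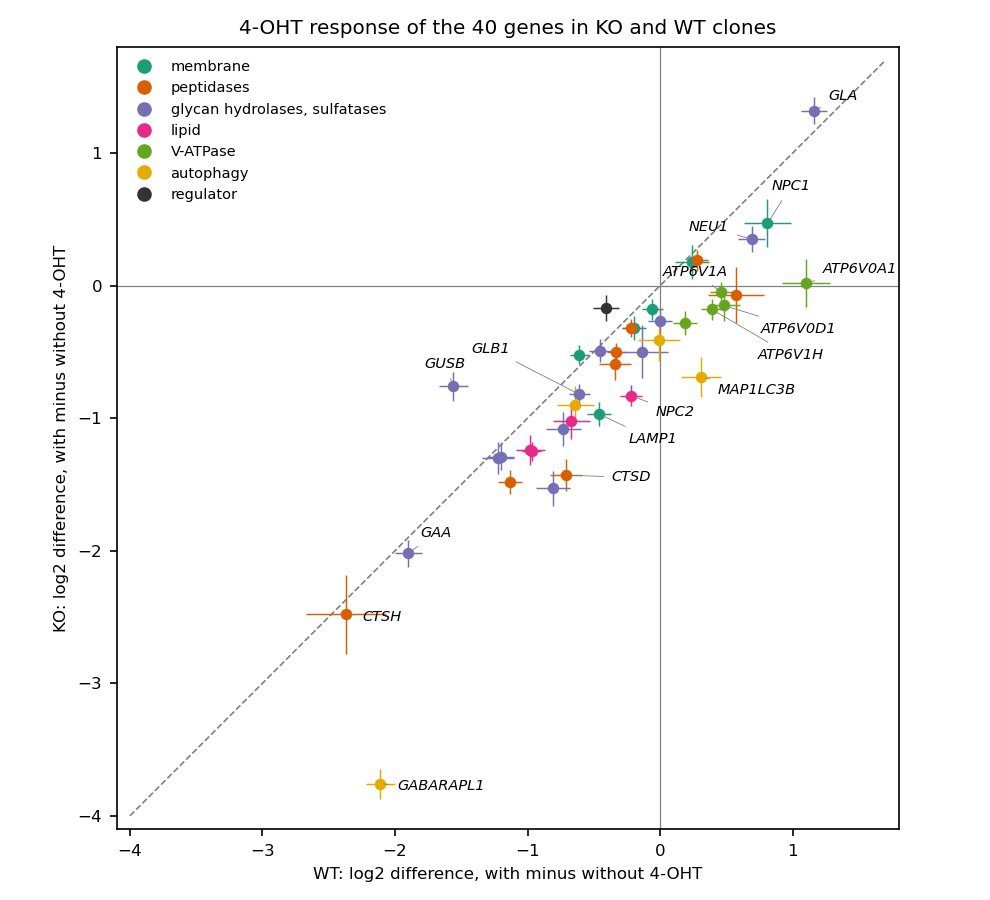
4-OHT response (log2 difference, with minus without 4-OHT) of the 40 genes in KO (vertical axis) and WT clones (horizontal axis), coloured by role; bars are SE and the dashed line marks equal responses. Of the 40 points, 36 lie below the line, GABARAPL1 and MAP1LC3B among them, and GUSB lies above it.

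Between the genotypes, the set differed little without 4-OHT and more with it. Without 4-OHT, 4 of the 40 genes were higher in KO and 1 lower (2.84% of all tested genes were called higher and 3.73% lower, 6.57% in all). GAA was 1.43-fold (adjusted p = 0.032), ASAH1 1.4-fold (adjusted p = 0.0474), NPC2 1.34-fold (adjusted p = 0.0315) and CTSH 2.59-fold higher in KO (adjusted p = 0.0407), and SGSH was 1.34-fold lower (adjusted p = 0.0325). All 5 calls ended when any 1 of the 4 KO libraries was left out (adjusted p 0.0509 to 0.248 over all libraries whose omission ended them). All 5 also ended without WT clone 54 without 4-OHT (adjusted p 0.0853 to 0.141). The counts were 6 higher and 2 lower without WT clone 15 without 4-OHT, and 2 higher and 1 lower without either WT clone with 4-OHT. GLB1 stood at 34.8 and 34.2 RPKM in KO and 36.4 and 32.5 RPKM in WT without 4-OHT, a log2 difference of 0.00 ± 0.08.

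With 4-OHT, 3 of the 40 genes were higher in KO and 14 lower (6.77% of all tested genes were called higher and 7.63% lower, 14.4% in all), with a median log2 difference of -0.20 beside -0.01 over all tested genes. The 3 higher genes were GUSB (log2 1.00 ± 0.11; adjusted p = 0.0041), CTSH (1.26 ± 0.30; adjusted p = 0.0327) and GAA (0.40 ± 0.10; adjusted p = 0.0428). The lower genes held all 5 V-ATPase genes and 3 of the 4 autophagy genes. ATP6V0A1 was 1.84-fold lower in KO (adjusted p = 0.02), ATP6V0D1 1.62-fold (adjusted p = 0.0127), ATP6AP1 1.46-fold (adjusted p = 0.012), ATP6V1H 1.44-fold (adjusted p = 0.00908) and ATP6V1A 1.35-fold (adjusted p = 0.0156). GABARAPL1 was 2.46-fold lower (adjusted p = 0.00257), MAP1LC3B 1.79-fold (adjusted p = 0.0134) and ULK1 1.48-fold (adjusted p = 0.0418). For each of these 8 genes the 2 KO clones lay below the 2 WT clones with no overlap. The same held for GLB1 and NPC1, which were not called (adjusted p = 0.123 and 0.0562). The share of all tested genes without overlap was not computed, so the separation adds nothing to the calls.

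The remaining 6 lower genes were LAMP1 (log2 -0.41 ± 0.09; adjusted p = 0.0231), MCOLN1 (-0.49 ± 0.13; adjusted p = 0.0491), CTSD (-0.58 ± 0.12; adjusted p = 0.025), NEU1 (-0.38 ± 0.10; adjusted p = 0.04), ARSA (-0.67 ± 0.13; adjusted p = 0.0185) and SGSH (-0.70 ± 0.09; adjusted p = 0.00578). None of the 4 lipid genes was called in this comparison. The count changed most with 2 libraries: without KO clone 69 with 4-OHT 1 gene was higher and 1 lower, and without WT clone 15 with 4-OHT 1 was higher and 2 lower. Without KO clone 66 with 4-OHT the counts were 1 higher and 9 lower, and without WT clone 54 with 4-OHT 2 higher and 7 lower. Only GUSB and GABARAPL1 were called under each of the 17 alternatives. The calls of CTSH and GAA ended without WT clone 15 or either KO clone with 4-OHT and without other libraries (adjusted p 0.0561 to 0.158), and those of MAP1LC3B, ULK1 and the 6 genes just named without KO clone 69 with 4-OHT and, but for SGSH, without other libraries (adjusted p 0.0511 to 0.213). The V-ATPase calls ended without WT clone 15 or KO clone 69 with 4-OHT (adjusted p 0.0523 to 0.108 over these genes and the other libraries that ended a call), with the estimates of the 5 between -0.36 and -0.90 there.

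The test of the difference between the responses called 7 of the 40 genes: 1 with a higher response in KO and 6 with a lower one (4.36% of all tested genes were called higher and 3.22% lower, 7.57% in all). GUSB fell less in KO (KO response minus WT response 0.80 ± 0.15 on the log2 scale; adjusted p = 0.023). GABARAPL1 fell more in KO (-1.64 ± 0.15; adjusted p = 0.00465), as did NPC2 (-0.61 ± 0.12; adjusted p = 0.0246). MAP1LC3B (-1.0 ± 0.21; adjusted p = 0.0329), ATP6V0A1 (-1.08 ± 0.25; adjusted p = 0.0443), ATP6V1H (-0.57 ± 0.11; adjusted p = 0.0261) and ATP6V1A (-0.52 ± 0.11; adjusted p = 0.0369) had positive estimates in WT and negative or near-zero ones in KO. The estimate was below 0 for 36 of the 40 genes, with a median of -0.28 beside -0.02 over all tested genes. It was also below 0 for 118 of 142 other lysosome and autophagy genes tested (median -0.24). The share of all tested genes below 0 was not computed, and all these estimates rest on the same 8 libraries. LAMP2, CTSL, TPP1, NPC1, SGSH, ATP6V0D1, ATP6AP1 and TFEB, whose 4-OHT response was called in 1 genotype only, were not called in this test (adjusted p 0.0706 to 0.646). Each of these 7 calls other than that of GABARAPL1 ended without at least 4 of the libraries, KO clone 69 with 4-OHT and both KO clones without 4-OHT among them for every one (adjusted p 0.0521 to 0.144). Without WT clone 15 with 4-OHT, KO clone 69 with 4-OHT or either KO clone without it, 1 gene had a lower response in KO, and without WT clone 54 without 4-OHT 3 had. With the clone as a block ATP6V1A was no longer called (adjusted p = 0.0622), and LAMP1 (adjusted p = 0.0393), CTSD (adjusted p = 0.0467), ATP6AP1 (adjusted p = 0.0404) and CTSK (adjusted p = 0.05, just under the threshold) were.

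Other lysosome and autophagy genes, 142 of 152 listed ones tested, were read the same way. With 4-OHT 25 of them rose and 65 fell in KO (median log2 -0.27), and 35 rose and 44 fell in WT (median -0.06). That was 63.4% called in KO and 55.6% in WT, beside 55.7% and 48.9% of all tested genes. Among 29 other hydrolase genes 2 rose and 20 fell in KO, and 4 rose and 20 fell in WT. The cysteine peptidase CTSF fell 6.76-fold in KO and 6.58-fold in WT (adjusted p = 2.78e-06 and 3.65e-06), and CTSO fell 6.64-fold and 3.72-fold. Of 19 sorting and enzyme-activation genes, 4 rose and 10 fell in KO, and 5 rose and 8 fell in WT. GNPTAB and GNPTG, subunits of the phosphotransferase that makes the mannose-6-phosphate tag, fell 2.72-fold and 2.43-fold in KO and 1.99-fold and 2.37-fold in WT, and SUMF1, which activates sulfatases, fell 2.27-fold in KO and 2.39-fold in WT. IGF2R, a receptor for the tag that was named after its values were seen, rose 1.38-fold in KO and 1.93-fold in WT (adjusted p = 0.0104 and 0.000467), with a KO call that ended without KO clone 66 with 4-OHT or KO clone 69 without it (adjusted p = 0.0671 and 0.0682).

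Of 15 other V-ATPase genes, 3 rose and 5 fell in KO with 4-OHT, and 5 rose and 2 fell in WT. That was 53.3% called in KO and 46.7% in WT, no more than the 55.7% and 48.9% of all tested genes. With 4-OHT 1 of the 15 was higher in KO than in WT and 6 lower (46.7% called, beside 14.4% of all tested genes). A lower response in KO was called for 4 (26.7%, beside 7.57% of all tested genes called in either direction), among them ATP6V1G1 (-0.89 ± 0.14; adjusted p = 0.0117), ATP6V0E1 (-0.91 ± 0.19; adjusted p = 0.0308) and ATP6V1D (-0.56 ± 0.11; adjusted p = 0.028). The call of ATP6V1G1 ended without KO clone 69 with 4-OHT or KO clone 66 without it (adjusted p 0.0587 to 0.0617), and those of ATP6V0E1 and ATP6V1D without these and other libraries (adjusted p 0.058 to 0.125). Not every pump gene followed: ATP6V0B rose 1.75-fold in KO and 1.94-fold in WT, and ATP6AP2 fell 1.88-fold and 1.73-fold.

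Of 37 other autophagy genes, 8 rose and 13 fell in KO with 4-OHT, and 11 rose and 6 fell in WT. That was 56.8% called in KO and 45.9% in WT, near the 55.7% and 48.9% of all tested genes. With 4-OHT none was higher and 11 were lower in KO than in WT (29.7% called, beside 14.4% of all tested genes). A lower response in KO was called for 6 (16.2%, beside 7.57% of all tested genes called in either direction). SQSTM1, which encodes the cargo receptor p62, measured 147 and 118 RPKM in KO clones with 4-OHT against 237 and 244 RPKM without it, and 300 and 303 RPKM in WT clones with 4-OHT against 265 and 274 RPKM without it. It was 2.29-fold lower in KO than in WT with 4-OHT (adjusted p = 0.00257), and its response was lower in KO by 1.03 on the log2 scale (SE 0.15; adjusted p = 0.00908; 0.0519 without KO clone 69 without 4-OHT). BECN1, of the lipid kinase complex that starts the autophagosome, and the cargo receptor OPTN each had a response lower in KO by 0.54 on the log2 scale (adjusted p = 0.0236 and 0.0261), calls that ended without 5 or more of the libraries (adjusted p 0.0508 to 0.111). ATG4A, a peptidase that trims ATG8 proteins, rose 2.93-fold in WT (adjusted p = 2.11e-05). It was higher with 4-OHT in KO clones too, at 9.36 and 9.46 RPKM against 5.1 and 4.67 RPKM without it.

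Of 24 tested genes of mTOR signalling and the MiT family to which TFEB belongs, 6 rose and 7 fell in KO with 4-OHT, and 7 rose and 3 fell in WT. That was 54.2% called in KO and 41.7% in WT, no more than the 55.7% and 48.9% of all tested genes. With 4-OHT none was higher and 7 were lower in KO than in WT (29.2% called, beside 14.4% of all tested genes). TFE3, the TFEB relative, measured 33.7 and 34.3 RPKM in KO clones with 4-OHT against 25.2 and 24.0 RPKM without it, and 44.8 and 44.8 RPKM in WT clones with 4-OHT against 30.4 and 29 RPKM without it. MITF, another relative, measured 4.20 and 3.56 RPKM in KO clones with 4-OHT against 12.4 and 14.6 RPKM without it, and 14.7 and 8.76 RPKM in WT clones with 4-OHT against 17.5 and 15.6 RPKM without it. With 4-OHT TFE3 was 1.32-fold (adjusted p = 0.012) and MITF 2.88-fold lower in KO than in WT (adjusted p = 0.00894), whereas TFEB had a log2 difference of -0.01 ± 0.10. The TFE3 call ended without WT clone 15 or either KO clone with 4-OHT (adjusted p 0.0633 to 0.0793), and that of MITF without KO clone 69 with 4-OHT (adjusted p = 0.0738).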

How the data were processed

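RNA of the 8 BJ-HRAS libraries was prepared with a stranded kit for total RNA, per the labels' protocols. Per the submitters' processing notes the tools were STAR, featureCounts and edgeR and the build GRCh38; versions, settings and the handling of strand were not given in the sources used here. In all, 58870 genes have 1 RPKM value per library in the deposited table; 45 duplicate rows of pseudoautosomal Y copies were left out.

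With GENCODE 29 transcript lengths, 100.0% of the values above 0 came out as whole reads within 0.1 read, which gave the library totals; for 6112 genes the length was inferred from their own values. The worth of 1 read per kb of transcript was 0.0401 to 0.0453 RPKM. RPKM values were divided by TMM factors from these reads (0.9536 to 1.0292), and library values in the text are on this scale. A gene was tested if 2 or more libraries had a CPM of 0.425 (10 reads at the median library size) and its reads summed to 15 or more. Group means (4, over 8 libraries, 4 residual degrees of freedom) were fitted with limma 3.58.1 (R 4.3.3), trend and robust moderation, on log2(RPKM + 0.1), a scale that understates the change of low genes. The count test of edgeR that the plan named for raw counts was left aside, since the authors deposited RPKM. The scripts were tested on simulated data. No label says that the libraries of a group differ in more than the clone, so p-values measure only the spread between clones. Limits on reads cover counting error only.

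Same-numbered libraries come from the same clonal line, which pairs them; the deviations of same-clone libraries from their group means correlated at r = 0.309 for the WT clones and 0.00536 for the KO clones, and a fit with the clone as a block was an alternative. The block fit estimates a level for each clone, so it has fewer residual degrees of freedom than the 4 of the fit reported. The members and all lists were chosen with earlier results of these data known. Values per library are given for GLB1, LAMP1, LAMP2, TFEB, MAP1LC3B and SNORA13 and for up to 3 members per role with the smallest p in any comparison; of other lists up to 3 genes per list and comparison were named, but for 1 gene that is not reported here. ATP6V1A, and the library values of SQSTM1, ATG4A, TFE3 and MITF, were added after their values were seen. Gene identifiers are those of the table, gene positions those of GENCODE 29 (matched by symbol), and promoter windows came from RefSeq (GRCh38.p14). Exonic bases are shared with another gene by 20 members, and by 7 with a gene of at least 10% of their level (MCOLN1, NPC1, MANBA, SGSH, NPC2, LIPA and MAP1LC3B); how such reads were assigned is not given in the sources used here.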

Additional observations from a re-analysis of the deposited data

Results flagged for a closer look

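Each gene below was listed because its response to 4-OHT differed between KO and WT clones in the test of the difference itself (limma, adjusted p under 0.05); values are the KO response minus the WT response on the log2 scale. Among the 40 genes these were GUSB at 0.80, NPC2 at -0.61, ATP6V1H at -0.57, ATP6V0A1 at -1.08, ATP6V1A at -0.52, MAP1LC3B at -1.0 and GABARAPL1 at -1.64. GUSB was the only 1 of the 7 with a positive value.

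Outside the set, 19 of 142 tested lysosome and autophagy genes were called in this test (13.4%, beside 7.57% of all tested genes). All 19 had a lower response in KO, and up to 3 per list with the smallest p are given. Of 4 other lysosomal hydrolases called, these were the fucosidase FUCA1 at -0.72 and the ribonuclease RNASET2 at -0.87. The 2 other membrane genes and the 1 sorting gene called were the sialic acid exporter SLC17A5 at -0.66, the chloride channel partner OSTM1 at -0.84 and the tethering subunit VPS41 at -0.54. Of 4 other V-ATPase genes called, those given are ATP6V1G1 at -0.89, ATP6V1D at -0.56 and ATP6V0E1 at -0.91.

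Of 6 other autophagy genes called, those given are SQSTM1 at -1.03, BECN1 at -0.54 and OPTN at -0.54, and the 2 of the mTOR and MiT list are FNIP2 at -0.97 and FNIP1 at -0.51. The calls of FUCA1, RNASET2, SLC17A5, OSTM1, VPS41, FNIP2 and FNIP1 each ended when any 1 of 4 to 7 of the 8 libraries was left out (adjusted p 0.0542 to 0.165), WT clone 15 with 4-OHT, KO clone 69 with 4-OHT and both KO clones without 4-OHT among them for every one. Beside these genes, the share of signal recognition particle RNA with 4-OHT was 16.1% and 14.77% in KO clones and 9.72% and 15.37% in WT clones. With this RNA and mitochondrial RNA left out of the scaling, 1 gene of the set had a higher and 6 a lower response in KO. These were the same counts as in the fit reported. Any part of this RNA beyond the scaling was not tested.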

How the results depend on the processing

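Both 4-OHT responses kept their counts within 1.5 times under every alternative with all libraries, but for 4 genes that rose in KO, in place of 2, with only the 4 libraries compared. The KO minus WT counts and those of the difference of responses depended on the processing; the cause was not tested. Without 4-OHT, of 4 genes of the set higher in KO there were 0 with no filter on low values, 0 without trend and robust moderation, 2 with library size only and 1 with only the libraries compared. The 1 lower gene became 0 with no filter, 0 with only the libraries compared and 0 without moderation. Over all genes, 470 higher and 617 lower became 89 and 166 with no filter, 35 and 40 with only the libraries compared, and 215 and 308 without moderation, and the higher ones 904 with limma-voom on recovered reads, a setting added after seeing the data. With 4-OHT, 3 higher and 14 lower genes of the set became 1 and 7 with no filter and 1 and 9 without moderation; over all genes 1120 higher and 1262 lower became 472 and 548 with no filter, and the lower ones 751 without moderation. For the difference of responses, 1 higher and 6 lower became 0 and 1 with no filter, 0 and 1 without moderation, and the lower ones 11 with limma-voom; over all genes 721 higher and 532 lower became 314 and 140 with no filter and 456 and 214 without moderation, and the lower ones 867 with limma-voom.

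Leaving out 1 library at a time, the genes of the set that rose and fell numbered 1 to 3 and 22 to 29 in KO, and 7 to 10 and 19 to 22 in WT. Higher and lower in KO were 1 to 3 and 1 to 16 with 4-OHT (over all genes 71 to 1422 and 139 to 1578), and 0 to 6 and 0 to 2 without it (1 to 864 and 4 to 1015); for the difference of responses they were 0 to 1 and 1 to 6 (221 to 1131 and 90 to 1023). In these fits the lone sample of a group is assumed to vary like the others. The medians of the 40 genes stayed at -0.57 to -0.48 in KO, -0.41 to -0.29 in WT, -0.25 to -0.20 for KO minus WT with 4-OHT, 0.06 to 0.11 without it and -0.31 to -0.22 for the difference of responses.

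With the clone as a replicate block, 3 genes of the set rose and 28 fell in KO, 10 rose and 21 fell in WT, and 1 had a higher and 9 a lower response in KO. The calls that the block changed are given beside their genes; outside the set it ended that of FNIP1 in the difference of responses, and it changed no other call of a named gene.

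Some small log2 differences, none of them called in the fit reported, changed sign. Under library size only, GLB1 in KO minus WT without 4-OHT was -0.02 and ATP6V0A1 in the KO response was -0.01. With abundant RNA (signal recognition particle and mitochondrial RNA) left out, TFEB in KO minus WT with 4-OHT was 0.00. With 1 library left out the ranges were -0.08 to 0.09 (GLB1), -0.59 to 0.02 (NPC1), -0.02 to 0.34 (MAP1LC3B) and -0.15 to 0.00 (ATP6AP1) for KO minus WT without 4-OHT, -0.01 to 0.11 (SCARB2) and -0.03 to 0.01 (TFEB) with 4-OHT, 0.00 to 0.04 (ATP6V0A1) and -0.12 to 0.02 (ATP6V1A) in the KO response, and -0.64 to 0.42 (CTSH) and -0.25 to 0.01 (GAA) for the difference of responses. Other scalings moved the median of all genes by at most 0.06 on the log2 scale. Groups of 2 clones limit what can be called, and the 94 reads of CTSH in WT clone 15 with 4-OHT are the thinnest count behind a value.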
